A study of Mus musculus with 4 samples.

Results

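Arg1-negative interstitial macrophages are described here as 175 cells out of the 15023 barcodes of the CD45-positive libraries, and of 25315 barcodes in all 4 libraries of the study. A barcode was taken where at least 2 of the 3 C1q genes (C1qa, C1qb and C1qc) had a UMI and Arg1 had none. Fewer than 2 of the 4 alveolar macrophage genes Krt79, Ear1, Fabp1 and Marco, and none of Cd3d, Cd3e, Cd79a and Cxcr2, which mark T cells, B cells and neutrophils, could have a UMI. The rule found 65 members in the 0 Gy library and 110 in the 4 Gy library. Since measured values chose the cells, the levels of these genes, and every difference between these cells and others, describe the choice and carry no test.

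Mouse lungs bearing HKP1 tumours were dissociated and live (DAPI-negative) cells were sorted by CD45, the surface marker of leukocytes, before 10x Genomics 3′ single-cell RNA sequencing. HKP1 is a transplantable mouse lung adenocarcinoma line, of which 150000 cells were given by tail vein to female C57BL/6 mice at 8 weeks of age, and the mice were assigned by bioluminescence on day 6 to arms of similar tumour load. In both arms every mouse carried HKP1 cells: the 0 Gy arm was mock-irradiated and the other received 4 Gy on each of 3 days in a row, days 10 to 12, with lungs taken 24 to 48 hours after the last dose. There were 4 mice per treatment and 1 library per treatment and sort, so each arm has 1 CD45-positive library, mice cannot be told apart within it, and no difference between doses has a replicate check or a test. No lung without a tumour was measured.

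Interstitial macrophages live in the connective tissue of the lung around airways, vessels and nerves, apart from the alveolar macrophages of the air space. They take up dying cells, make complement, present antigen on MHC class II and release chemokines that draw other leukocytes. C1qa, C1qb and C1qc encode the subunits of C1q, the recognition molecule of the classical complement pathway, and arginase 1, the product of Arg1, breaks down arginine and is a common marker of suppressive macrophages in tumours. Subsets of interstitial macrophages are usually told apart by Lyve1, on perivascular cells, and by MHC class II and Cx3cr1, on cells near nerves and airways.

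The members held 527818 UMIs at 0 Gy and 953425 at 4 Gy, with medians of 7252 (495 to 24240) and 8328 (338 to 28388) UMIs and 2557 and 2889 genes per cell. The deepest cell gave 4.59% and 2.98% of these sums. Levels below are CPM, counts per 1000000 UMIs, summed over the members of a library. Ratios carry exact 95% binomial intervals and shares exact Clopper-Pearson intervals, both of counting error only; they do not cover differences between mice or cells. Of the 4 libraries, depth ran from 12448164 to 36423571 UMIs. The CD45-positive libraries shared 10 barcode sequences, of which 0 members at 0 Gy and 1 member at 4 Gy used one.

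C1q detection was not marginal in most members. All 3 C1q genes had a UMI in 57 of 65 members at 0 Gy and 86 of 110 at 4 Gy, and just inside the rule stood 8 and 24 members with exactly 2. Just outside stood 31 and 74 barcodes that met the other conditions with only 1 C1q gene. At least 10 C1q UMIs were present in 46 members (70.8%) and 87 members (79.1%), with medians of 22 and 25.5. Free RNA in droplets can also give UMIs to cells that do not make them, and among the 4143 and 7127 barcodes with a T cell, B cell or neutrophil gene of the rule, 59 (1.42%) and 118 (1.66%) had 2 or more C1q genes. Among the barcodes without such genes these shares were 5.82% and 7.17%. The doublet caller Scrublet, taken at its expected rate, marked 0 and 2 members, against 5 and 26 of the C1q barcodes that the rule removed for lymphocyte or neutrophil genes.

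The label was checked against markers that the rule did not use. Of the 9 markers listed for interstitial macrophages 3 are the C1q genes, whose presence the rule fixed. The other 6 were detected in each library, at least 2 of them in 60 of 65 and 100 of 110 members. Their summed level, most of it from Apoe, was 15676 and 12940 CPM in members against 1141 and 1234 CPM in other CD45-positive barcodes. Apoe, a lipid carrier made in quantity by tissue macrophages, reached 14238 and 11839 CPM, against 961 and 1022 CPM in other CD45-positive barcodes. Apoe also had a UMI in 38.6% and 37.5% of B cell barcodes, whose median depth was 2820 and 2314 UMIs, so its detection in a cell is a poor marker on its own. After thinning to 1000 UMIs per cell, which left out 5 and 13 shallow members, Apoe was found in 88.3% and 77.3% of members and in 23% and 22.9% of B cell barcodes. Ms4a7, a membrane protein typical of tissue macrophages outside the air space, was at 241 and 194 CPM against 7.57 and 6.79 CPM. It had a UMI in 36 and 48 members, and in 18.3% and 18.6% of thinned members. The leukocyte gene Ptprc, which encodes CD45, had a UMI in 47 and 92 members.

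Besides the C1q genes, Ms4a7 and Apoe, the genes highest in members over the other CD45-positive barcodes were mostly those of lipid-handling macrophages. Gpnmb, a lysosomal glycoprotein of phagocytes filled with lipid, was at 1415 and 882 CPM against 28.4 and 44.3 CPM. Fabp5, a fatty acid binding protein, stood at 2112 and 1812 CPM against 102 and 151 CPM. Trem2, the lipid-sensing receptor of such cells, was at 561 and 488 CPM against 18.9 and 35.4 CPM, and Mmp12, the macrophage elastase, at 231 and 454 CPM against 11.3 and 14.0 CPM. These genes were high in the members of each library. Reads of the pseudogene Cd63-ps, also among these highest genes, cannot be told apart with certainty from those of Cd63 and it is not described further.

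**Figure D1:**
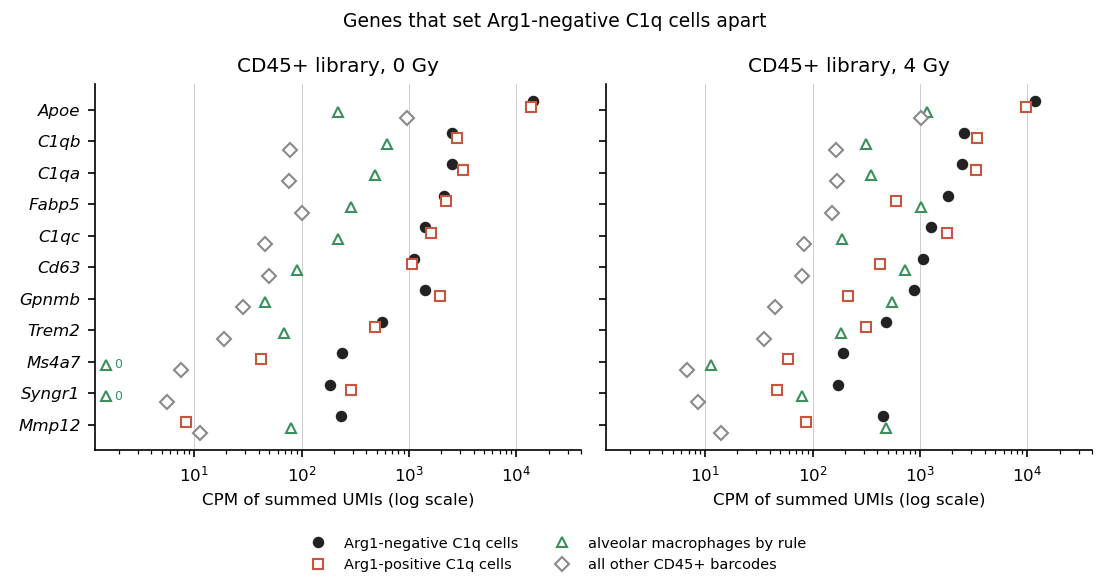
Levels of the genes with the highest ratio of members to other CD45-positive barcodes, as CPM of summed UMIs on a log axis, at 0 Gy (left) and 4 Gy (right). Filled circles are Arg1-negative C1q cells (65 and 110), squares Arg1-positive C1q cells (8 and 66), triangles alveolar macrophages by rule (13 and 26) and diamonds all other CD45-positive barcodes; members lie to the right of the diamonds in every row, as the choice of genes makes them.

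Markers of other cell types ranged from 0 to levels above those of the other CD45-positive barcodes. Those of type 2 conventional dendritic cells and of alveolar macrophages were above them, those of classical monocytes below but of similar size, and those of lymphocytes and neutrophils far below. Among members 14 and 29 had at least 2 classical monocyte markers, with sums of 729 and 774 CPM against 977 and 1221 CPM in other CD45-positive barcodes. Markers of type 2 conventional dendritic cells summed to 307 and 854 CPM against 182 and 167 CPM, with at least 2 of them in 8 and 16 members. At least 2 neutrophil markers were found in 8 and 21 members, at sums of 142 and 127 CPM against 4334 and 8681 CPM, with Cxcr2 at 0 by the rule. The T and NK list reached 2 markers in 2 and 4 members and the B cell list in 1 and 1, with Cd3d, Cd3e and Cd79a at 0 by the rule. Alveolar macrophage markers reached 2 in 5 and 11 members, at 210 and 316 CPM against 66.5 and 81.7 CPM in other CD45-positive barcodes. In alveolar macrophages by rule they were at 3861 and 4377 CPM. Endothelial and fibroblast markers reached 2 in 0 and 0 members.

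The share of members among CD45-positive barcodes was close to equal between doses. They made up 65 of 5415 barcodes at 0 Gy (1.2%, 0.928 to 1.53%) and 110 of 9608 at 4 Gy (1.14%, 0.942 to 1.38%), a ratio of 0.954 (0.696 to 1.32). Cells that met the same rule but had Arg1 numbered 8 (0.148%) and 66 (0.687%), a ratio of 4.65 (2.23 to 11.2). As a share of all C1q macrophages, the Arg1-negative cells were therefore 65 of 73 (89.0%, 79.5 to 95.1%) at 0 Gy and 110 of 176 (62.5%, 54.9 to 69.7%) at 4 Gy. The lack of an Arg1 UMI depends on depth: Arg1-positive cells held medians of 13182 and 9262 UMIs, more than the members. With every barcode thinned to 1000 UMIs before the rule was applied, the shares were 89.9% and 69.8%, and among cells with Ms4a7 they were 92.3% and 81.4% (48 of 59). A share of sorted cells shows neither the number of macrophages in a lung nor how many entered or left it. In the CD45-negative libraries 19 of 5979 and 7 of 4313 barcodes met the same conditions, and 2 and 1 of them had a Ptprc UMI.

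The members were not alike in the detection of Gpnmb, Cx3cr1 and Mgl2. Gpnmb had a UMI in 29 members (44.6%) at 0 Gy and 43 (39.1%) at 4 Gy, against 0.299% and 0.603% of B cell barcodes. After thinning these shares of members were 36.7% and 25.8%. Cx3cr1, the fractalkine receptor, had a UMI in 22 members (33.8%) and 25 members (22.7%), against 3.85% and 2.96% of B cell barcodes, and in 18.3% and 11.3% of thinned members. Mgl2, a lectin shared by interstitial macrophages and dendritic cells, had a UMI in 13 members (20%) and 38 members (34.5%), and in 11.7% and 18.6% of thinned members. Gpnmb was found in 5 of the 22 members with Cx3cr1 at 0 Gy and 1 of the 25 at 4 Gy. It was found in 2 of the 13 members with Mgl2 and 3 of the 38, beside 29 of 65 and 43 of 110 among all members. None of the 3 was found in 12 and 22 members, whose median depth was 2053 and 5530 UMIs. These genes were chosen to divide the members after their values were seen, and the strata are ranges of detection, not cell types.

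Cells with and without Gpnmb differed in lipid, lysosomal and antigen presentation genes, a description of these cells since detection of a gene divided them. Apoe was at 22136 and 20101 CPM in members with Gpnmb and at 5674 and 4602 CPM in those without. Ctsd, the lysosomal protease cathepsin D, stood at 8916 and 7116 CPM against 379 and 478 CPM, and Fabp5 at 3922 and 3607 CPM against 150 and 240 CPM. The opposite held for Cd74, the MHC class II invariant chain, at 5980 and 6572 CPM with Gpnmb and 25734 and 24845 CPM without. C1qa was also lower in members with Gpnmb, at 1213 and 1788 CPM against 3937 and 3052 CPM. Ccr2, the receptor by which monocytes leave the marrow, was at 32.8 and 98.8 CPM against 841 and 578 CPM. Each of these contrasts had the same direction in both libraries. Median depth was 9528 and 10108 UMIs in members with Gpnmb and 5584 and 7303 UMIs in those without; its part in the contrasts was not tested.

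Perivascular markers other than Mrc1 were detected in few members. Lyve1 had a UMI in 0 of 65 members at 0 Gy and in 2 of 110 at 4 Gy. At least 2 of the perivascular markers were detected in 0 members, which allows a share of up to 5.52%, and in 7 members (6.36%). These shares are of cells with UMIs, and in shallow cells a gene without a UMI may still be expressed. The mannose receptor Mrc1 was present in 26 and 46 members, at 112 and 124 CPM. High MHC class II, defined as at least 10 UMIs per 1000 from H2-Aa, H2-Ab1, H2-Eb1 and Cd74, was found in 39 members (60.0%, 47.1 to 72.0%) and 74 members (67.3%, 57.7 to 75.9%). At least 2 monocyte markers of a shorter list were present in 9 members (13.8%) and 23 (20.9%), at least 2 dendritic markers in 5 and 14, and at least 2 patrolling monocyte markers in 1 and 8.

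Between doses 7348 genes were measured in the members, with at least 20 UMIs over both libraries, and the median log2 ratio of all of them was 0.01. At 4 Gy 668 genes were at least 1.5-fold higher on the scale of log2(CPM + 5), which is 9.09%, and 603 were at least 1.5-fold lower, which is 8.21%. The interval of the ratio also lay above 1 for 287 of the former and below 1 for 295 of the latter. With so few cells, a gene can be called on the UMIs of a single cell. Leaving out, for each gene, the cell with the most UMIs in each library kept 648 of the 668 and 472 of the 603 calls. Calls then numbered 956 higher and 485 lower, and the median of all genes was 0.08. This setting drops 1 of 65 cells at 0 Gy and 1 of 110 at 4 Gy with totals kept, which tilts ratios upward. Keeping higher calls and losing lower ones is thus partly built in, here and wherever top cells are left out below. The shares of 9.09% and 8.21% are the background for the counts that follow, which are descriptions of 2 libraries.

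Chemokines were the list with the highest median. Of 15 measured members of the list 8 were higher at 4 Gy and 1 was lower, with a median log2 ratio of 1.01 beside 0.01 for all genes; without each gene's top cell the median was 0.62 beside 0.08. Ccl9, which attracts monocytes and dendritic cells through CCR1, was the most widely detected of those that were higher. It stood at 227 CPM in 28 members and 461 CPM in 64 members, a ratio of 2.03 (1.66 to 2.51). The other higher chemokines came from few cells.

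Ccl24, an eosinophil attractant typical of alternatively activated macrophages, was at 22.7 CPM (12 UMIs in 4 members) and 190 CPM (181 UMIs in 13 members), a ratio of 8.35 (4.66 to 16.5). A single 4 Gy cell held 91 of the 181 UMIs, and averaging over cells in place of summing gave 1.31. Ccl8, a ligand of monocyte chemokine receptors, went from 24.6 CPM in 5 members to 123 CPM in 9, a ratio of 4.98 (2.80 to 9.64), or 1.40 when averaged over cells. Ccl12, its neighbour in the chemokine cluster of chromosome 11, was at 9.47 CPM in 3 members and 49.3 CPM in 10, a ratio of 5.20 (2.08 to 16.8). Ccl12 lies at chr11:82101845-82103400 and Ccl8 at chr11:82115185-82116799, both on the plus strand (GENCODE M21 annotation of GRCm38). Ccl7, also in this cluster, was at 18.9 and 44.1 CPM (4 and 7 members), and Ccl2, the main monocyte attractant there, at 94.7 and 73.4 CPM (8 and 14 members), with an interval that includes 1. Neighbouring genes of the cluster thus had ratios on both sides of 1.

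Pf4, the chemokine known as platelet factor 4, was at 56.8 CPM in 12 members and 181 CPM in 24 members, a ratio of 3.19 (2.16 to 4.87), with 81 of the 173 UMIs at 4 Gy in a single cell. The platelet markers Ppbp and Gp9 were at 0 in both libraries. Ccl4 stood at 5.68 and 31.5 CPM in 3 and 10 members, whereas Ccl3, encoded beside it, was lower, at 75.8 and 46.1 CPM, a ratio of 0.609 (0.388 to 0.959). Other chemokines were close to equal: Ccl6 at 1614 and 1617 CPM, and Cxcl9, induced by interferon gamma, at 483 and 474 CPM. Cxcl16 was at 470 and 423 CPM, and Ccl5 at 396 and 299 CPM, a ratio of 0.755 (0.629 to 0.907). Levels of different genes are not compared here, only each gene between libraries. Ccl17, a dendritic cell chemokine and one of the dendritic markers, was at 66.3 CPM in 4 members and 429 CPM in 13, a ratio of 6.47 (4.58 to 9.42). With Ccl17 itself left out of the markers, 293 of its 409 UMIs at 4 Gy lay in the 30 members with at least 2 monocyte, dendritic or patrolling markers and 116 in the others, while at 0 Gy all 35 lay in the others.

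**Figure D2:**
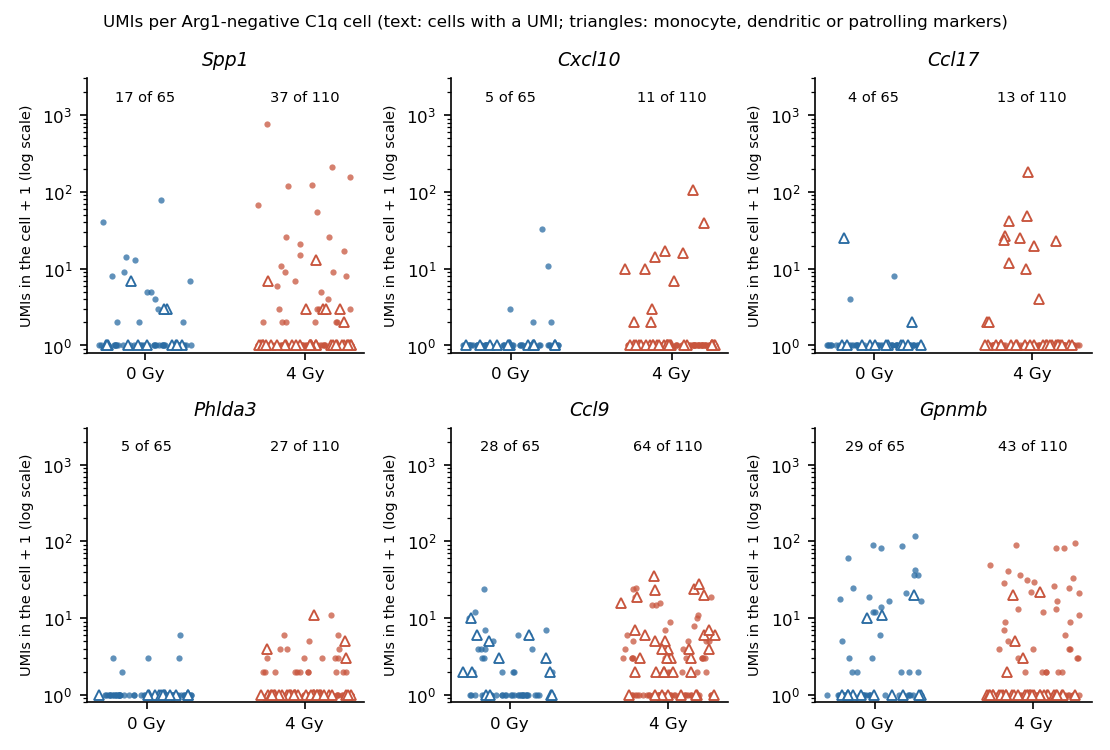
UMIs per member cell (plus 1, log axis) of 6 genes at 0 Gy (blue) and 4 Gy (red), with the number of cells that had a UMI written above each group. Triangles are members with at least 2 monocyte, dendritic or patrolling markers; Ccl9 is spread over 64 members at 4 Gy, whereas 1 member holds 756 of the 1679 UMIs of Spp1.

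Spp1 had the most UMIs of the 15 genes named as highest at 4 Gy. It encodes osteopontin, a secreted matrix protein of tumour-associated macrophages, and lies at chr5:104435118-104441050 on the plus strand. Its level was 356 CPM (188 UMIs in 17 members) at 0 Gy and 1761 CPM (1679 UMIs in 37 members) at 4 Gy, a ratio of 4.94 (4.25 to 5.78). In each library 2 cells held at least 50% of the UMIs, the top cell 77 of 188 and 756 of 1679. Spp1 lay mainly in cells with Gpnmb, at 659 and 3686 CPM in members with Gpnmb and 27.6 and 74.8 CPM in members without.

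The Spp1 difference moved with markers of other cell types. The 11 and 24 members with at least 2 markers of T and NK cells, B cells or neutrophils, 21 of the latter on the neutrophil list, held 1384 of the 1679 UMIs at 4 Gy. In them Spp1 was at 205 and 4930 CPM. In the other 54 and 86 members it was at 404 and 439 CPM, a ratio of 1.09 (0.893 to 1.32). In these sums higher Spp1 at 4 Gy was therefore not seen in members without such markers. Their 0 Gy level rests in part on a single cell, which held 77 of the 188 UMIs of that library. At 4 Gy the most in a single cell without such markers was 66 UMIs. Why the UMIs lie in marked cells was not tested.

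Secreted and matrix genes were also higher in part. Of 13 measured genes of the repair and matrix list 3 were higher and 0 lower, with a median log2 ratio of 0.19. Fn1, fibronectin, was at 419 CPM in 32 members and 819 CPM in 50, a ratio of 1.96 (1.68 to 2.28), but 1.28-fold when averaged over cells. Mmp12 was at 231 CPM in 12 members and 454 CPM in 26, also 1.96 (1.60 to 2.42), but 1.29-fold in members with at least 10 C1q UMIs. Its direction turned with markers of other cells: the ratio was 3.67 (2.76 to 4.96) in members with fewer than 2 T and NK, B or neutrophil markers and 0.602 (0.433 to 0.842) in those with them. Retnla, a secreted protein of alternatively activated macrophages, had 0 UMIs at 0 Gy and 40 UMIs in 3 members at 4 Gy, at least 7.38-fold higher against a floor of 3 counts in the 0 Gy library. Chil3, another such protein, was at 229 and 229 CPM.

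Slpi had the highest ratio of any gene with UMIs in both libraries that the text names. It encodes a secreted inhibitor of neutrophil elastase, lies at chr2:164354070-164389095 on the minus strand, and stood at 17.1 CPM (9 UMIs in 6 members) and 216 CPM (206 UMIs in 22 members), a ratio of 12.7 (6.55 to 28.1). Slpi was higher at 4 Gy both in members with fewer than 2 T and NK, B or neutrophil markers, at 12.5 and 158 CPM, and in those with them, at 31.5 and 356 CPM. Other CD45-positive barcodes held 168 and 239 CPM of Slpi, above the 0 Gy members. Mfge8, which bridges dying cells to phagocytes, was at 47.4 and 156 CPM, a ratio of 3.30 (2.15 to 5.26), with 91 of its 149 UMIs at 4 Gy in a single cell; its fold was 2.09 without top cells and 1.32 in members with Ms4a7. Ear2 was at 20.8 CPM in 8 members and 142 CPM in 21, a ratio of 6.79 (3.68 to 13.9), but 1.21-fold when averaged over cells. Plet1, an alveolar macrophage marker, was at 15.2 CPM in 5 members and 87.1 CPM in 8. The whole alveolar list summed to 210 and 316 CPM beside these values, with Krt79 and Cidec at 0 at 4 Gy, and its part in the differences of Ear2 and Plet1 was not tested.

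Other genes with 0 UMIs at 0 Gy ranged from a single cell to many. Alox15, a lipoxygenase, had 49 UMIs in 1 member (at least 9.04-fold), Ednrb 21 UMIs in 1 member (at least 3.88-fold) and Saa3, an acute phase protein, 37 UMIs in 2 members (at least 6.83-fold). Prtn3, a protease of immature myeloid cells, had 34 UMIs in 5 members (at least 6.27-fold). Spon1 alone was spread, with 23 UMIs in 13 members (at least 4.24-fold).

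**Figure D3:**
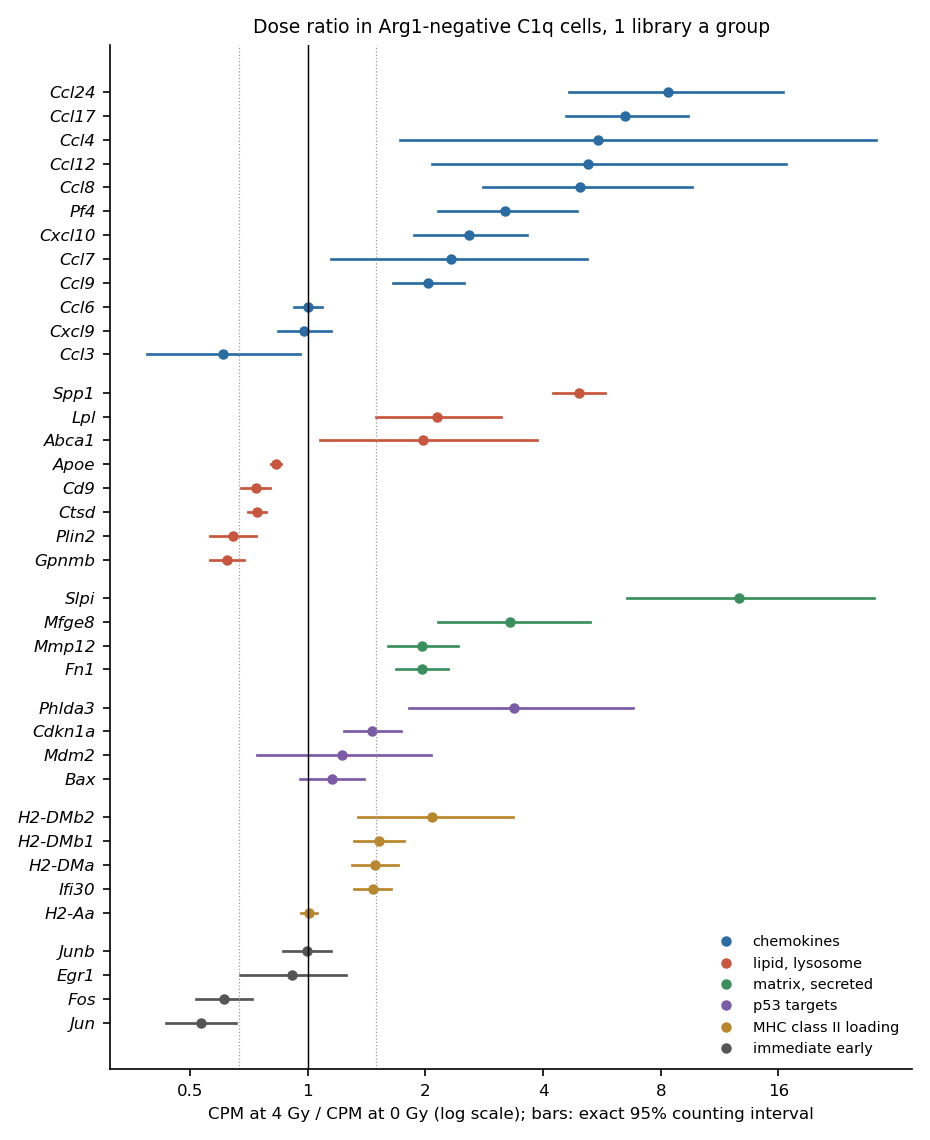
Ratio of CPM at 4 Gy to CPM at 0 Gy in the members for selected genes (log axis), grouped by role, with exact 95% counting intervals as bars and dotted lines at 1.5-fold. The highest ratio drawn is that of Slpi (12.7) and the lowest that of Jun (0.534); Ccl6, H2-Aa and Junb lie on the line of no difference.

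Among 10 measured MHC class II genes 2 were higher and 0 lower, with a median log2 ratio of 0.25. H2-Aa, a chain of the presenting molecule, was nearly equal at 5011 and 5059 CPM, as was the invariant chain Cd74 at 15458 and 16313 CPM. H2-DMb1 and H2-DMb2, chains of the chaperone that loads peptide, were at 458 and 697 CPM, a ratio of 1.52 (1.31 to 1.77), and at 49.3 and 103 CPM, a ratio of 2.09 (1.34 to 3.35). H2-DMb2 had a UMI in 10 and 43 members. H2-DMa, the partner chain, was at 559 and 830 CPM, a ratio of 1.48 (1.3 to 1.7), and Ifi30, a thiol reductase that unfolds antigen, at 868 and 1274 CPM, a ratio of 1.47 (1.32 to 1.64). In members with fewer than 2 monocyte, dendritic or patrolling markers the median of the list was -0.23, and the ratio of H2-DMb1 was 1.09 (0.887 to 1.34) and that of H2-DMb2 1.63 (0.869 to 3.20). Of 14 MHC class I genes 0 were called in either direction, with a median of 0.06, and Psmb8, a subunit of the immunoproteasome, was at 548 and 776 CPM, a ratio of 1.42 (1.24 to 1.63).

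Interferon-responsive genes carry short promoter elements, and the promoters of 4 genes that were higher at 4 Gy are shown because their difference reversed with the members that were counted. The interferon-stimulated response element was searched as GAAANNGAAA and the gamma-activated site as TTCNNNGAA, on both strands, in the 250 bases before each start (RefSeq, build GRCm38.p6). The first was found in 978 of 32841 promoters (2.98%) and the second in 2306 (7.02%). Capitals mark the matches to the first motif, which overlap in Isg15 (3 matches) and Socs1 (2 matches); the Ifi47 window holds 0 matches to either motif. The promoters are printed 5′ to 3′, on the minus strand for Cxcl10 at chr5:92348890-92349139, Isg15 at chr4:156200819-156201068 and Socs1 at chr16:10785537-10785786, and on the plus strand for Ifi47 at chr11:49076337-49076586.
Cxcl10: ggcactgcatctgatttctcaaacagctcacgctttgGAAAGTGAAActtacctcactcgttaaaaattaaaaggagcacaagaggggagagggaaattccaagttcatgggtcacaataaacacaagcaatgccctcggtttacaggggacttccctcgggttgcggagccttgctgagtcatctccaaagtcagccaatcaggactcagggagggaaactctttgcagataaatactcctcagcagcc
Isg15: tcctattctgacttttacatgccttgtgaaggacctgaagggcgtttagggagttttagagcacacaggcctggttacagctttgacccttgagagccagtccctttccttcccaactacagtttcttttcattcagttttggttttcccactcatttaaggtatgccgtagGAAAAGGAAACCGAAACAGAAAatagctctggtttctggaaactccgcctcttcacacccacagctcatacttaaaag
Socs1: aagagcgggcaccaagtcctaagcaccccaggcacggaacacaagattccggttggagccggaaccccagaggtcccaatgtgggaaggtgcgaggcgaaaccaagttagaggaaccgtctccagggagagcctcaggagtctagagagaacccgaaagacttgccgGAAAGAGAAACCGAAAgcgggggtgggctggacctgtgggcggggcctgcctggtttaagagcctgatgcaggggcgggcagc
Ifi47: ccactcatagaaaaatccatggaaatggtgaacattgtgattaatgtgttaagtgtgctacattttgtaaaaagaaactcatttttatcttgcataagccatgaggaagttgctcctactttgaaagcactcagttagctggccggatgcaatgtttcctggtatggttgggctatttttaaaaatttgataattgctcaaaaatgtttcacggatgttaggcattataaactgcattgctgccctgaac
The match nearest to the start lies 203 bases before it in Cxcl10, 56 in Isg15 and 67 in Socs1. Among the measured genes of the interferon gamma list, 13 of 16 had a promoter in the tables and 8 of them held the response element, against 6 of 12 in the type I interferon list and 1 of 9 among chemokines. These are matches of letters only. Of the 5 interferon gamma genes higher at 4 Gy, 2 of 4 with a promoter held it.

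Of 16 measured interferon gamma genes 5 were higher and 0 lower, with a median log2 ratio of 0.29. Without top cells the median was 0.53, beside 0.08 for all genes. Gbp4, a guanylate-binding protein, was at 24.6 CPM in 7 members and 75.5 CPM in 29, a ratio of 3.07 (1.68 to 6.03). Ifi47, an immunity-related GTPase, was at 56.8 CPM in 13 members and 107 CPM in 37, a ratio of 1.88 (1.24 to 2.93). Socs1, the feedback inhibitor of interferon signalling, stood at 34.1 and 72.4 CPM in 8 and 18 members, a ratio of 2.12 (1.25 to 3.79). Acod1, which makes itaconate, was at 5.68 and 33.6 CPM in 2 and 9 members, with 18 of 32 UMIs at 4 Gy in a single cell. Cxcl10, a T cell attractant, was at 87.2 CPM (46 UMIs in 5 members) and 226 CPM (215 UMIs in 11 members), a ratio of 2.59 (1.87 to 3.64).

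Of 17 measured type I interferon genes 4 were higher and 3 lower, with a median of 0.12. Isg15, a ubiquitin-like antiviral protein, was at 60.6 CPM in 15 members and 149 CPM in 26, a ratio of 2.46 (1.66 to 3.73). Irf7, a transcription factor that amplifies the response, was at 15.2 CPM in 5 members and 51.4 CPM in 22, a ratio of 3.39 (1.59 to 8.29). Rtp4 was at 26.5 and 55.6 CPM and Ms4a4c at 77.7 and 124 CPM. Ifit1, Ifit2 and Ifit3, which block foreign RNA, were at 24.6, 34.1 and 20.8 CPM at 0 Gy and 13.6, 18.9 and 10.5 CPM at 4 Gy. A single cell held 11 of 13, 17 of 18 and 9 of 11 of their UMIs at 0 Gy, and without each library's top cell the folds were 1.52, 2.25 and 1.17. The members of this list therefore did not move together.

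Most of these interferon differences lay in members with monocyte, dendritic or patrolling markers. Such members, with at least 2 markers of at least 1 of those lists, numbered 13 at 0 Gy and 36 at 4 Gy. All 215 Cxcl10 UMIs at 4 Gy were in them, whereas all 46 at 0 Gy were in the other 52 members. Of these, 1 cell held 105 of the 215 and 1 cell 32 of the 46. Isg15 was at 98.1 and 337 CPM in marked members and at 46.7 and 21.1 CPM in the other 52 and 74 members. Ifi47 was at 49.1 and 223 CPM against 59.7 and 28.2 CPM, and Socs1 at 7.01 and 163 CPM against 44.1 and 10.6 CPM. In the marked 0 Gy members 7.01 CPM is 1 UMI. Gbp4 was 1.29-fold higher in unmarked members, under the 1.5-fold call. In unmarked members the list medians were -0.75 for interferon gamma (16 genes) and -0.83 for type I interferon, the opposite sign of those over all members. The latter rests on 11 measured genes, against 17 over all members. Whether marked cells were a larger share of the members at 4 Gy was not tested. With the rule applied to thinned cells, members with at least 2 monocyte markers were 6.45% at 0 Gy and 6.78% at 4 Gy. Those with at least 2 dendritic markers were then 1.61% and 2.54%. Without thinning these shares were 13.8% and 20.9% for monocyte markers, and 7.69% and 12.7% for dendritic markers. With 13 marked cells at 0 Gy, the levels among them rest on 142654 UMIs.

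Targets of p53, the transcription factor activated by DNA damage, had a median above that of all genes, but few passed 1.5-fold. HKP1 cells lack Trp53, the gene of p53, while the macrophages are those of the mouse. Of 17 measured genes 2 were higher and 0 lower, with a median log2 ratio of 0.32. Without top cells the median was 0.50, beside 0.08 for all genes. The summed level was 1353 and 1797 CPM. Phlda3, an inhibitor of AKT at chr1:135766119-135769136 on the plus strand, was at 22.7 CPM (12 UMIs in 5 members) and 76.6 CPM (73 UMIs in 27 members), a ratio of 3.37 (1.82 to 6.81). Sesn2, a stress-induced metabolic regulator, was at 15.2 and 26.2 CPM in 6 and 20 members, with an interval that includes 1. Cdkn1a, the gene of p21, a brake on the cell cycle, was at 362 CPM in 39 of 65 members and 530 CPM in 67 of 110. The ratio of Cdkn1a was 1.46 (1.24 to 1.74), but 1.14-fold when averaged over cells. Mdm2 and Bax, the p53 ligase and an apoptosis effector, had ratios of 1.22 (0.742 to 2.07) and 1.15 (0.957 to 1.39). Cells with Gpnmb carried most of the Phlda3 difference, at 29.1 and 139 CPM, against 15.8 and 21.6 CPM in cells without. Cdkn1a was at 422 and 685 CPM with Gpnmb and 296 and 394 CPM without.

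Lipid-associated genes split. Of 14 measured 3 were higher and 3 lower, with a median log2 ratio of -0.21 and a mean of 0.02, which differ in sign. Besides Spp1, Lpl, lipoprotein lipase, was at 73.9 and 158 CPM, a ratio of 2.14 (1.5 to 3.13), and Abca1, a cholesterol exporter, at 26.5 and 52.4 CPM, a ratio of 1.98 (1.08 to 3.87). Gpnmb was lower, at 1415 and 882 CPM, a ratio of 0.623 (0.564 to 0.689), though 0.794 after thinning and 0.760 in members with fewer than 2 monocyte, dendritic or patrolling markers. Also lower was Plin2, the coat protein of lipid droplets, at 760 and 490 CPM, a ratio of 0.645 (0.563 to 0.739). Fabp4 was at 49.3 and 26.2 CPM, with 17 of 26 UMIs at 0 Gy in 1 cell, and its fold was 1.04 without top cells. The other abundant genes of the list stayed under 1.5-fold: Apoe had a ratio of 0.832 (0.808 to 0.856), Cd9 of 0.737 (0.676 to 0.803) and Trem2 of 0.870 (0.75 to 1.01). In members with Gpnmb the ratio of Gpnmb was 0.694 (0.628 to 0.767), and 36.7% and 25.8% of thinned members had it. Gpnmb was thus also lower within the members that had it. These members held 274575 of the 527818 UMIs at 0 Gy and 445194 of the 953425 at 4 Gy. Detection of Gpnmb chose these cells, and the part of their share and of their level in the sums was not tested. Of 20 lysosomal genes 0 were called, with a median of -0.10, while their sum had a ratio of 0.887 (0.870 to 0.904) and Ctsd, at 4820 and 3578 CPM, a ratio of 0.742 (0.705 to 0.782).

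Transcription factors, receptors and cytokines of the macrophage showed single differences. Among 14 transcription factors 1 was higher and 1 lower, with a median of -0.03. Cebpa, a myeloid factor, was at 349 CPM in 50 members and 206 CPM in 78, a ratio of 0.590 (0.480 to 0.725). Bhlhe40, a factor of activated macrophages, was at 110 and 179 CPM, a ratio of 1.63 (1.21 to 2.24). Among 16 chemotactic and growth factor receptors 0 were higher and 1 was lower: Cxcr4, the receptor of Cxcl12, at 167 CPM in 39 members and 80.8 CPM in 47, a ratio of 0.484 (0.352 to 0.665). Csf1r, the receptor on which macrophages depend, was at 441 and 348 CPM, a ratio of 0.789 (0.665 to 0.937), and Cx3cr1 at 116 and 83.9 CPM.

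Of 14 cytokines and growth factors 2 were higher and 3 lower, with a median of -0.05. Il1b was at 322 CPM in 12 members and 501 CPM in 45 members, a ratio of 1.56 (1.3 to 1.87), and of 1.0 (0.817 to 1.23) in members with fewer than 2 T and NK, B or neutrophil markers. Il1a was at 7.58 and 22 CPM in 4 and 14 members. Osm, oncostatin M, was lower, at 64.4 and 23.1 CPM, a ratio of 0.358 (0.200 to 0.630). Pdgfb, a chain of platelet-derived growth factor, was also lower, at 62.5 and 36.7 CPM, a ratio of 0.587 (0.354 to 0.975). Csf1 was at 37.9 and 23.1 CPM. Of the 13 checkpoint and costimulation genes 1 was higher: Cd40, which receives help from T cells, at 15.2 CPM in 7 members and 49.3 CPM in 23, a ratio of 3.25 (1.52 to 7.97).

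Complement other than C1q gave 1 higher and 2 lower genes of 9, with a median of 0.18; without top cells there were 3 higher and 0 lower, with a median of -0.02. The receptors C3ar1 and C5ar1 were lower, at 178 and 114 CPM and at 104 and 65 CPM, but without top cells their folds were 0.673 and 0.802, short of the call. C5ar1 was instead 1.35-fold higher when averaged over cells, and 1.67-fold higher in members with Ms4a7. C4b was at 9.47 and 26.2 CPM in 3 and 3 members, with 22 of its 25 UMIs at 4 Gy in a single cell. C3 was at 119 and 170 CPM, a ratio of 1.42 (1.06 to 1.94), and properdin, Cfp, at 144 and 215 CPM, a ratio of 1.49 (1.14 to 1.97). Without top cells, a setting that tilts ratios upward, C3 was 1.80-fold and Cfp 1.71-fold higher. The C1q genes, which chose the cells, were at 2520 and 2462 CPM for C1qa, 2527 and 2590 CPM for C1qb and 1417 and 1269 CPM for C1qc. Scavenger receptors (1 higher, 0 lower of 12) and Fc and adhesion receptors (1 and 1 of 15) had medians of 0.01 and -0.01. Clec10a was the higher scavenger receptor (26.5 and 44.1 CPM), and Icam1 (17.1 and 28.3 CPM) and Tlr4 (37.9 and 23.1 CPM) were the called adhesion and Fc list genes, each with an interval that includes 1.

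Of 18 immediate early and stress genes 0 were higher and 4 were lower, with a median of -0.23. Without top cells, a setting that tilts ratios upward, only Myc was still lower by 1.5-fold, at 0.483. Fos was at 538 and 329 CPM, a ratio of 0.612 (0.520 to 0.721), and Jun at 377 and 201 CPM, a ratio of 0.534 (0.436 to 0.655). A single 0 Gy cell held 72 of the 199 Jun UMIs, and without top cells the folds were 0.667 for Fos and 0.798 for Jun. In members with fewer than 2 monocyte, dendritic or patrolling markers they were 0.871 and 0.832, and in members with Ms4a7 0.860 and 0.720. Nr4a1 was at 32.2 and 16.8 CPM and Myc at 28.4 and 10.5 CPM, while Junb was equal, at 584 and 582 CPM. These genes respond to tissue dissociation as well as to signals in the lung, and which of these they follow here was not tested. Atf5 and Trib3, genes of the integrated stress response, were also lower, at 144 and 56.6 CPM, a ratio of 0.393 (0.272 to 0.565), and at 56.8 and 12.6 CPM, a ratio of 0.221 (0.103 to 0.445). Of 11 chaperones 2 were higher, Hsp90aa1 at 92.8 and 144 CPM and Hsph1 at 11.4 and 23.1 CPM. Sod2, mitochondrial superoxide dismutase, was the 1 higher gene of 16 antioxidant genes, at 163 and 263 CPM, a ratio of 1.62 (1.26 to 2.09). Of 11 glycolysis genes 2 were lower, Pfkfb3 at 30.3 and 15.7 CPM and Ndrg1 at 24.6 and 13.6 CPM, both with intervals that include 1; the list's median was 0.11 and its mean -0.02.

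Proliferation genes had 0 higher and 2 lower of 8, with a median of -0.30, but the lower genes came from 1 cell. Stmn1 was at 83.4 and 14.7 CPM, with 38 of 44 UMIs at 0 Gy in a single member, and Pclaf at 32.2 and 8.39 CPM, with all 17 UMIs at 0 Gy in a single member. Without top cells the median was 0.13. Hist1h2ap, a histone gene among the lowest at 4 Gy (309 and 39.9 CPM), likewise had 129 of 163 UMIs in 1 cell.

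**Figure D4:**
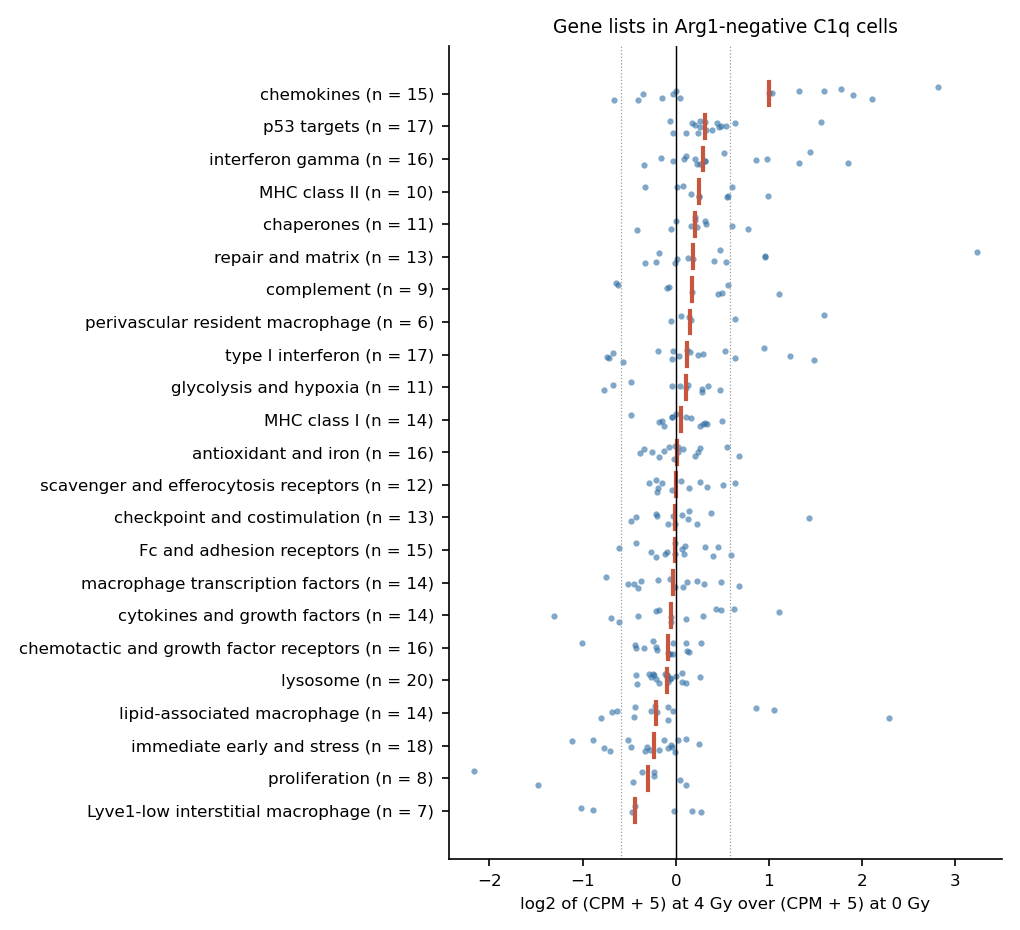
Log2 ratios of (CPM + 5) at 4 Gy over 0 Gy for every measured gene of 23 lists in the members; each point is a gene, red bars are list medians, n is the number of measured genes and dotted lines mark 1.5-fold. Chemokines have the highest median (1.01) and the Lyve1-low interstitial macrophage list the lowest (-0.44), beside 0.01 for all measured genes.

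Lists of interstitial macrophage subsets gave the following counts. Of 7 measured Lyve1-low genes 0 were higher and 2 lower, with a median of -0.44: Cd72 at 45.5 and 19.9 CPM, a ratio of 0.438 (0.227 to 0.835), and Pmepa1 at 142 and 74.5 CPM, a ratio of 0.524 (0.373 to 0.735). Of 6 measured perivascular genes 2 were higher, Pf4 and Clec10a, with a median of 0.16, while Mrc1 and Stab1 had ratios of 1.11 (0.803 to 1.54) and 1.04 (0.628 to 1.76).

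Arg1-positive C1q cells met the same rule apart from Arg1, and the members were set beside them within each dose. Arg1 divided the groups, so what follows describes the division. Over 4570 measured genes 134 were at least 1.5-fold higher in members in both libraries, which is 2.93%, and 137 were lower in both, which is 3.00%. At 0 Gy the Arg1-positive cells were only 8, with 118161 UMIs. C1qa, C1qb and C1qc were lower in members, at ratios of 0.798, 0.908 and 0.881 at 0 Gy and 0.745, 0.768 and 0.708 at 4 Gy. At 0 Gy the Arg1-positive cells held 329 C1qb and 190 C1qc UMIs, and the intervals of these ratios include 1. Ms4a7 was higher in members, by 5.69 (2.37 to 17.8) at 0 Gy and 3.27 (2.31 to 4.75) at 4 Gy.

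Among the genes higher in members in both libraries were Mmp12 and Abcg1. Mmp12 was at 231 against 8.46 CPM at 0 Gy and 454 against 86.7 CPM at 4 Gy, the latter a ratio of 5.24 (3.97 to 7.03). Abcg1, a cholesterol exporter, had ratios of 4.68 (2.69 to 8.91) and 2.03 (1.69 to 2.44), whereas those of Abca1, another such exporter, were 0.784 (0.246 to 3.27) and 0.75 (0.492 to 1.14). Cd9, a tetraspanin, had ratios of 2.31 (1.86 to 2.89) and 1.7 (1.53 to 1.89), and Lgals3, galectin 3, of 1.78 (1.56 to 2.03) and 1.87 (1.76 to 2.0). H2-M2, a nonclassical MHC gene, was at 56.8 against 0 CPM (at least 2.24-fold) and 97.5 against 1.52 CPM. The scavenger-like receptor Cd93 and the transcription factor Atf5 were also higher, with 4 Gy ratios of 2.85 (1.89 to 4.44) and 6.21 (2.67 to 17.7).

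Among the genes lower in members in both libraries were those of fibronectin and interleukin 1 beta. Fn1 was at 419 against 1591 CPM and 819 against 3047 CPM, ratios of 0.263 (0.216 to 0.321) and 0.269 (0.247 to 0.292). Il1b was at 322 against 2124 CPM and 501 against 1267 CPM. Cxcl2, a neutrophil attractant, had ratios of 0.0647 (0.0393 to 0.103) and 0.188 (0.132 to 0.263). Srgn, the granule proteoglycan serglycin, had ratios of 0.380 (0.313 to 0.463) and 0.401 (0.366 to 0.439), Fcgr4, an activating Fc receptor, of 0.280 (0.165 to 0.478) and 0.275 (0.211 to 0.356), and Socs3 of 0.257 (0.183 to 0.362) and 0.388 (0.307 to 0.488). Gpnmb differed in direction by dose, at 1415 against 1946 CPM at 0 Gy and 882 against 216 CPM at 4 Gy, and Fabp5 was at 2112 against 2234 CPM and 1812 against 599 CPM. Spp1 was lower in members at 0 Gy, at 356 against 2327 CPM, and at 4 Gy stood at 1761 against 1534 CPM.

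**Figure D5:**
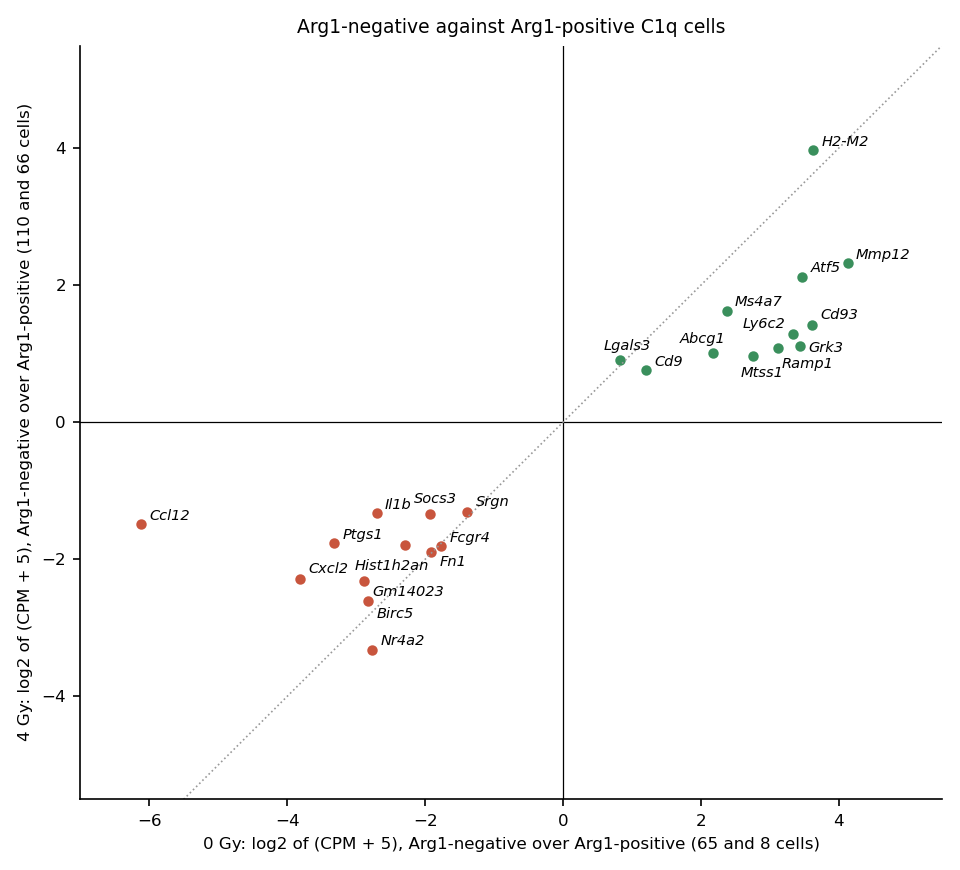
Log2 ratio of (CPM + 5) in Arg1-negative over Arg1-positive C1q cells at 0 Gy (horizontal, 65 and 8 cells) and at 4 Gy (vertical, 110 and 66 cells) for the 12 genes highest and 12 lowest in both. The dotted line marks equal ratios; H2-M2 and Mmp12 lie at the upper right, and Ccl12, at ratios of 0.00949 and 0.334, lies farthest left.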

How the data were processed

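CD45-positive and CD45-negative sorted lung cells of mice given 0 Gy or 4 Gy were measured by 10x Genomics 3′ RNA sequencing on the Illumina NovaSeq6000, per the labels' protocols. The submitters' processing notes name mm10 as the build, and STAR, Partek and Seurat as tools; their roles and versions are not given in the sources used here. Values in the deposited files are log2, which the authors put in 1 table per library, with cells in rows and 20640 genes in columns. Tested on the tables, these are log2(CPM + 1) per cell, and 99.9997% to 99.9998% of values were whole multiples of the smallest in their cell within 0.02, so whole UMI counts were worked out from them. The 2 CD45-positive tables gave the members and the CD45-negative tables a check of the rule.

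UMIs were summed over members per library and divided by the members' total, with NumPy 2.4.6 and SciPy 1.17.1 in Python 3.11.15. A gene was measured with at least 20 UMIs and called at 1.5-fold on log2(CPM + 5). No test was made, as each group is a single library. Doublets were scored with Scrublet in Scanpy 1.11.5, whose automatic threshold marked 0 barcodes, so the highest scores up to 0.8% per 1000 barcodes (235 and 739) were marked and removed only in an alternative. Gene positions are from GENCODE M21, which matched 20304 of the gene columns, and promoters from RefSeq. The calculations were tested on simulated data.

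The members, the 23 gene lists and the 16 marker lists were chosen with earlier results of these data known. Genes named are those of the rule, the 12 highest over other CD45-positive barcodes (at least 100 CPM), the 15 highest and 15 lowest at 4 Gy by the interval bound nearest 1, up to 4 per list with at least 50 UMIs, any list gene needed to describe its roles, and the 12 highest and 12 lowest against Arg1-positive cells. Genes called where 5 or fewer of a list were called are named too, and the division of members by Gpnmb, Cx3cr1 and Mgl2 was chosen after the values were seen. Alternatives were doublet removal, thinning to 1000 UMIs, members with at least 2000 UMIs, means over cells, median-of-ratios scaling, pseudocounts of 1 and 50, minimums of 10 and 50 UMIs, stricter C1q and Ms4a7 rules and leaving out marked cells. Pseudogenes, whose reads cannot be told apart from those of their parent genes, were not described, and Gapdh, with 0 and 3 UMIs in members, was not used. Some genes of the lists are not reported here.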

Additional observations from a re-analysis of the deposited data

Results flagged for a closer look

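For 10 named or listed genes with at least 50 UMIs in each of the 2 cell groups the ratio of 4 Gy to 0 Gy lay on one side of 1 in the members and on the other in Arg1-positive C1q cells, with both counting intervals clear of 1. Below that minimum the same held for Fabp4, at 0.532 (0.295 to 0.959) in members and 7.01 (1.19 to 284) in Arg1-positive cells, which had 1 Fabp4 UMI at 0 Gy and 39 at 4 Gy. With 1 library per group these differences between the cell groups were not tested, and the Arg1-positive cells at 0 Gy were only 8. Some of these genes, among them Spp1, were named for their dose ratio in the members. The share over all genes is not given here, so the count describes chosen genes only. Among chemokines, Ccl12 had a ratio of 5.20 in members and 0.148 in Arg1-positive cells, Cxcl10 of 2.59 and 0.148, and Pf4 of 3.19 and 0.401. Arg1-positive cells held 118 Ccl12 UMIs and 324 Cxcl10 UMIs at 0 Gy. Spp1 had a ratio of 4.94 in members and 0.659 in Arg1-positive cells, and Il1b of 1.56 and 0.596; in members with fewer than 2 T and NK, B or neutrophil markers the ratios of these genes were 1.09 and 1.0. Gbp4 had ratios of 3.07 and 0.435. The beta-glucan receptor Clec7a had ratios of 1.42 and 0.667, the integrin chain Itgb2 of 1.37 and 0.749, and the biliverdin reductase Blvrb of 1.49 and 0.591. Osm moved the other way, at 0.358 in members and 2.84 in Arg1-positive cells, which had 5 Osm UMIs at 0 Gy and 79 at 4 Gy.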

How the results depend on the processing

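No paired analysis was possible because each group is 1 library. Calls between doses (668 higher, 603 lower) became 210 and 144 of 1210 genes after thinning, 1037 and 1218 with means over cells, 84 and 50 with a pseudocount of 50, 1034 and 958 of 9440 genes with a minimum of 10 UMIs, and 285 and 241 of 4261 genes with 50. Of all calls 52.6% were higher, against 62.7% with a pseudocount of 50 and 66.3% without each gene's top cell. Calls against Arg1-positive cells (134 higher, 137 lower, of 4570 genes) became 20 and 25 of 499 genes after thinning. They became 32 and 68 of 4570 genes with a pseudocount of 50, and 48 and 66 of 2013 genes with 50 UMIs. List medians were read against the range that order statistics of the list's own genes give the median, a description only. Those that left this range, or changed sign where it was clear of 0, were after thinning scavenger receptors 0.37, lysosome 0.012, receptors 0.30, p53 -0.034 (3 genes), interferon gamma 1.83 (3 genes) and chaperones 0.69. With means over cells they were lysosome 0.035 and chaperones -0.13; with a pseudocount of 50, p53 0.15; with at least 10 C1q UMIs, checkpoint 0.23; and in members with Ms4a7, lysosome -0.047, interferon gamma -0.0499 and immediate early 0.074. In members with fewer than 2 monocyte, dendritic or patrolling markers they were MHC class II -0.23, lysosome 0.0017, p53 0.57, type I interferon -0.83 (11 genes) and interferon gamma -0.75. Without top cells p53 was 0.50 and proliferation 0.13, and without T and NK, B or neutrophil markers p53 was 0.56. The last 2 settings were chosen after seeing the data; the cause of these moves was not tested. The other 301 list medians stayed within their range, some with a change of sign. The Arg1-negative share at 4 Gy (62.5%) was 69.8% by the rule on thinned cells and 81.4% with Ms4a7, and the other 8 values of this share were close to the main ones, as were all 5 of the members' share of CD45-positive barcodes. By the rule on thinned cells monocyte-marked members were 6.45% and 6.78%, dendritic-marked 1.61% and 2.54%, and, at 4 Gy, perivascular-type 0.847% and patrolling-marked 1.69%. Among named genes at least 1.5-fold apart, log2 ratios changed sign for C5ar1 (0.43 with means over cells, 0.74 with Ms4a7), Ptgs1 (-0.63 with means, -0.0796 without top cells), Fabp4 (1.15 with 10 C1q UMIs, 0.66 with Ms4a7, 0.0501 without top cells), Hist1h2an (0.065 without top cells) and, in members with fewer than 2 monocyte, dendritic or patrolling markers, Cxcl10 (-4.64), Ifi47 (-0.96), Isg15 (-0.99) and Socs1 (-1.66). Of the Cxcl10 UMIs in members, 1 cell held 32 of 46 at 0 Gy and 1 cell 105 of 215 at 4 Gy. With 65 and 110 cells, genes at a few UMIs are limited by depth.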
